A study of Bos taurus and Sus scrofa with 10 samples.

Results

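Cell division in oocytes and early embryos is driven by one kinase complex, and 10 genes that set its activity are described here in the cow, Bos taurus, and the pig, Sus scrofa, from the oocyte to the blastocyst. They are the kinase CDK1, its B-type cyclins CCNB1 and CCNB2, the inhibitory kinases WEE1 and WEE2, the activating phosphatases CDC25A, CDC25B and CDC25C, and the factors MOS and FBXO43 that hold the egg in metaphase of the second meiotic division. The genes were chosen by symbol. All 10 had a row in the cow data (of 22845 rows), and 8 had one in the pig data (of 21867 rows). CDK1 and CDC25A carried no row under these symbols in the pig table and were not analysed there. No symbol occurred more than 1 time, and no row overlapped another row of its table.

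RNA was sequenced from oocytes, from embryos of 2-4 and of 8-16 cells, from the morula, a solid ball of cells, and from the blastocyst, which has a cavity, an inner cell mass and a trophectoderm. Each stage of each species had 1 library, 10 in all, and the labels name no treatment, genotype, age or sex. They do not say whether the oocytes were at the germinal vesicle or the metaphase stage, how the embryos were produced, or how many entered a library. By its title the study concerned how DNA methylation changes before implantation and how species differ in it. With 1 library per group no difference below has a replicate check, and no p-value is given.

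CDK1 bound to a B-type cyclin is M-phase promoting factor, the activity that carries a cell into meiotic or mitotic division. WEE1-family kinases phosphorylate CDK1 and keep it inactive, and CDC25 phosphatases remove those phosphates, so entry into division depends on the balance of both. WEE2, also called WEE1B, is the family member of the oocyte, where it helps to hold the prophase arrest and is needed again for exit from metaphase at fertilisation. In the mature egg MOS, a kinase that switches on the MAPK cascade, and FBXO43, also called EMI2, which inhibits the anaphase-promoting complex, make up cytostatic factor and prevent cyclin B from being destroyed before a sperm arrives. Oocytes store much of this machinery as messenger RNA, which the embryo degrades as it starts to transcribe its own genome. RNA levels do not give protein levels or kinase activity.

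Levels are RPM, the reads of a gene per 1000000 reads in its library, with 95% Wilson intervals that cover counting error only. RPM values are not divided by gene length, so a gene is compared between stages and not with another gene. The tables of both species were scaled separately, and each species is described within its own table. Library totals were 3899291 to 14182046 reads in cow and 3002751 to 4138616 reads in pig. A count of 0 reads allows a level of up to 3 reads, which was 0.212 to 0.769 RPM in cow and 0.725 to 0.999 RPM in pig. Changes are differences of log2(RPM + 1), later minus earlier stage. A gene with at least 1 RPM in one of both libraries was compared, and it is said to have risen or fallen when the difference reached 2, which is 4-fold on that scale. The mitochondrial share of reads went from 4.40% in the cow oocyte library and 2.74% at the 2-4 cell stage to 10.7% at the 8-16 cell stage and 30.2% in the blastocyst library, and from 6.06% to 18.6% in pig between oocyte and blastocyst, and a larger share lowers the RPM of every other gene. In bulk libraries fewer cells with an RNA and less of it per cell cannot be told apart.

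The stage labels were set against marker lists. All 14 oocyte markers in the cow table and all 13 in the pig table had at least 1 RPM in the oocyte library, and 1 and 3 of them did so in the blastocyst library. Of the blastocyst markers, 13 of 14 had at least 1 RPM in the cow blastocyst library. In the pig blastocyst library 12 of 15 did, and NANOG, SOX2 and HAND1 had 0 reads. In the oocyte libraries 8 of 14 in cow and 5 of 15 in pig already reached 1 RPM. The summed level of the blastocyst markers was 86.8 RPM in the cow oocyte library and 4253 RPM in the cow blastocyst library. In pig these sums were 42.0 and 8684 RPM. Of 20 cumulus markers in cow, 10 reached 1 RPM in the oocyte library and 7 had 0 reads there, among them AMH, INHA and FOXL2, which define granulosa cells, while STAR was the highest of the list at 157 RPM. Of 16 in pig, 7 reached 1 RPM in the oocyte library and 6 had 0 reads, among them INHA and CYP11A1, while KITLG was the highest at 106 RPM. Their summed level over the 5 stages was 162 to 591 RPM in cow, with 513 RPM in the oocyte library, and 170.3 to 635 RPM in pig, with 276 RPM in the oocyte library. The part of cumulus cells in the oocyte values was not tested.

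**Figure D1:**
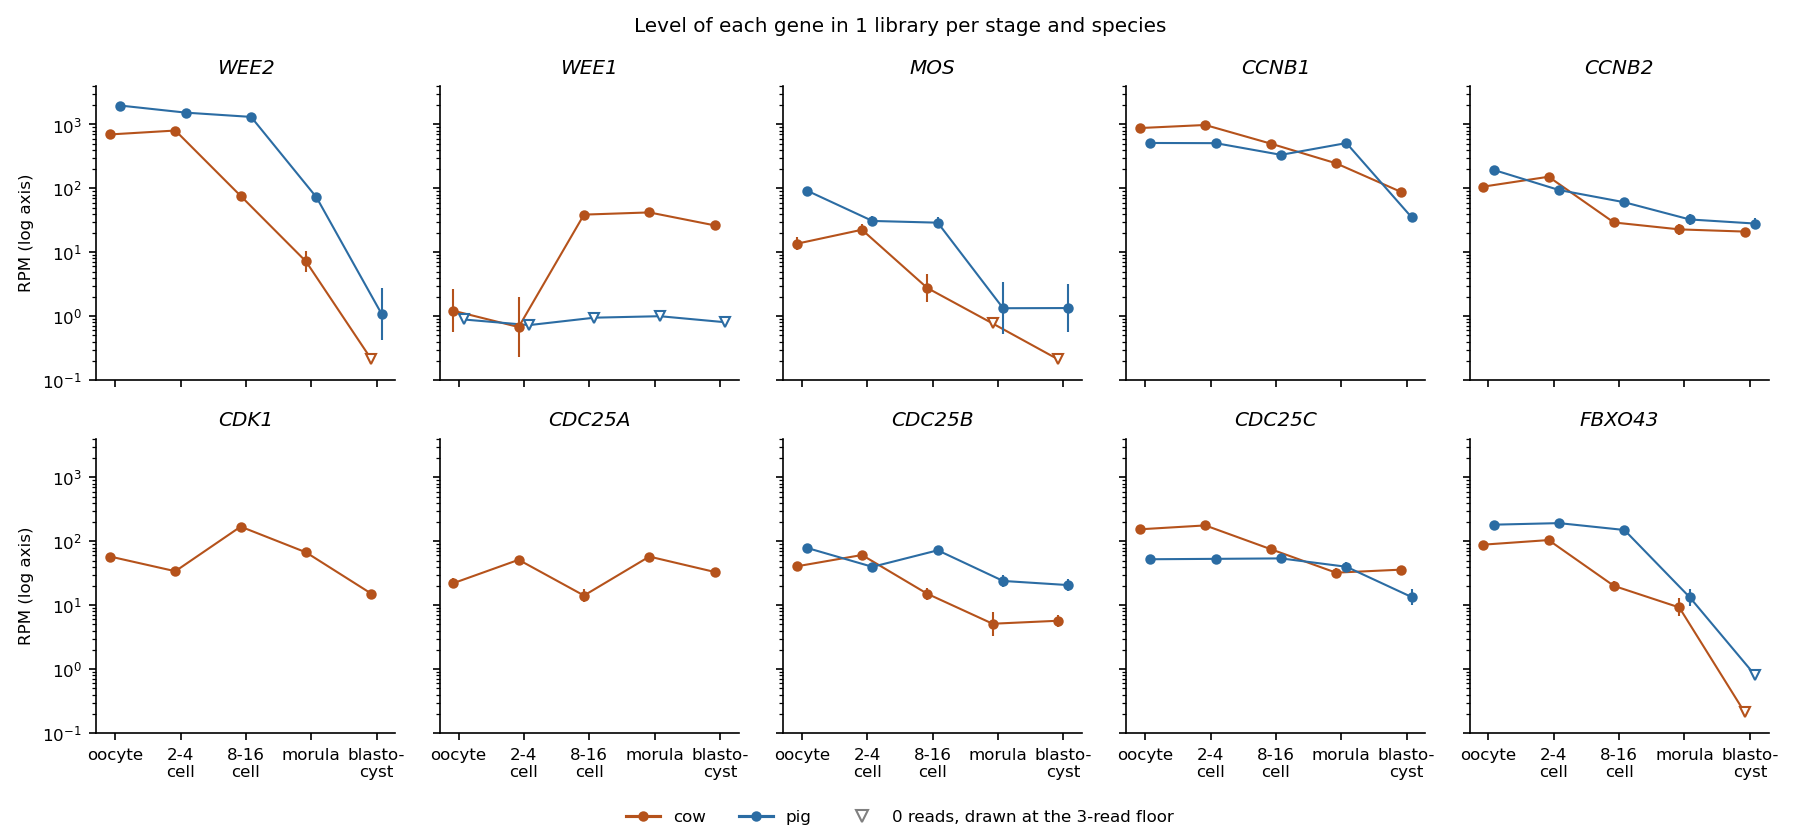
Level of each gene in RPM (log axis) by stage in cow (orange) and pig (blue), 1 library per point, with 95% Wilson intervals for counting error; open triangles are libraries with 0 reads, drawn at the level of 3 reads. WEE2, MOS and FBXO43 end at or near 0 reads in both species, while WEE1 appears in cow from the 8-16 cell stage; the pig row of WEE1 has 0 reads in all 5 libraries, and CDK1 and CDC25A have no pig row.

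The inhibitory kinases changed over in cow: WEE2 RNA was lost while WEE1 RNA appeared. Cow WEE2 lies on chromosome 4 (105810983 to 105837062, plus strand) and pig WEE2 on chromosome 18 (8171138 to 8195957, minus strand). In cow it stood at 698 RPM in the oocyte library (interval 675 to 722), 804 RPM at 2-4 cells, 76.2 RPM at 8-16 cells (69.2 to 83.9), 7.18 RPM at the morula (4.97 to 10.4) and 0 reads in the blastocyst library. The first 2 libraries were thus the high ones, and the level fell 10.5-fold at the next step (9.52 to 11.7) and 10.6-fold more at the morula (7.23 to 16.2), with no overlap of neighbouring intervals.

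Pig WEE2 stood at 1976 RPM in the oocyte library (1929 to 2024), 1532 RPM at 2-4 cells, 1313 RPM at 8-16 cells (1274 to 1353), 72.6 RPM at the morula (63.6 to 82.9) and 1.07 RPM, which is 4 reads, in the blastocyst library. Here the first 3 libraries were high and the loss came 1 step later than in cow, 18.1-fold at the morula and 67.7-fold at the blastocyst (26.1 to 251). By the 8-16 cell stage cow WEE2 was at 10.9% of its oocyte level (9.83 to 12.1) and pig WEE2 at 66.4% (63.9 to 69.1). Its fall from oocyte to blastocyst ranked 11 of 12738 genes compared in cow and 4 of 12512 in pig.

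WEE1 is the family member of dividing somatic cells. Cow WEE1 (chromosome 15, 43668580 to 43682433, minus strand) had 6 reads in the oocyte library (1.22 RPM) and 3 reads at the 2-4 cell stage (0.676 RPM). It then stood at 38.8 RPM at 8-16 cells (33.9 to 44.4), 42.1 RPM at the morula (36.1 to 49.01) and 26.4 RPM at the blastocyst (23.8 to 29.2). The rise from the 2-4 cell to the 8-16 cell stage was 4.57 on the log2 scale, rank 204 among the rises of 12405 genes, and the ratio of 57.5 rests on 3 reads at the lower stage (19.4 to 281). The 3 later libraries were all far above the 2 early ones, and the blastocyst library was 21.7-fold above the oocyte library (9.86 to 59.4).

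The steps of both cow genes met at the 8-16 cell stage. WEE2 held 99.8% of the reads of the WEE2 and WEE1 rows in the oocyte library and 99.9% at the 2-4 cell stage. It held 66.2% at the 8-16 cell stage (62.4 to 69.8) and 14.6% in the morula library (10.3 to 20.3). In the blastocyst library it held 0 of 374 reads. These shares are of reads and not of molecules, since the lengths of both transcripts are not taken into account.

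The pig row named WEE1 had 0 reads in all 5 libraries. It lies on chromosome 10 (25144791 to 25147056) and spans 2266 bases, against 13854 bases for the cow row. CALM2 and ANAPC13, which code for a calmodulin and a subunit of the anaphase-promoting complex and are used by most cells, were also listed at 0 in every pig library. The pig table is therefore given no reading for WEE1, and whether pig embryos change from WEE2 to WEE1 was not tested. PKMYT1, the membrane-bound kinase of the same family, was looked at after its values were seen. It stood at 1.22, 5.41, 0.736, 2.82 and 8.04 RPM in cow from oocyte to blastocyst, a rise of 2.03, and had at most 3 reads in any pig library.

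CDK1 itself was highest at 8-16 cells in cow. The gene (chromosome 28, 16620266 to 16633922, plus strand) stood at 57.8 RPM in the oocyte library (51.5 to 64.9), 34.02 RPM at 2-4 cells (29.01 to 39.9), 169.7 RPM at 8-16 cells (159 to 181), 67.2 RPM at the morula (59.5 to 75.8) and 15.2 RPM at the blastocyst (13.3 to 17.3). The 8-16 cell library was the highest, and the morula and oocyte libraries had overlapping intervals. CDK1 rose 4.99-fold from the 2-4 cell to the 8-16 cell stage (4.20 to 5.97), and with WEE1 it was 1 of 2 genes of the group that rose at that step. From the morula to the blastocyst it fell 4.43-fold (3.69 to 5.33), a difference of -2.08 that was -1.83 when scaled to gene reads outside the mitochondrial genome. From oocyte to blastocyst the difference was -1.86, short of the threshold.

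CCNB1, the main cyclin partner of CDK1 in M phase, fell from oocyte to blastocyst in both species, along different courses. Cow CCNB1 (chromosome 20, 10431453 to 10441126, minus strand) stood at 879 RPM in the oocyte library, 982 RPM at 2-4 cells, 502 RPM at 8-16 cells, 247 RPM at the morula and 87.6 RPM at the blastocyst (82.9 to 92.7). From the 2-4 cell stage on each library was lower than the one before, and no single step reached the threshold. The whole fall was 10.03-fold (9.42 to 10.7).

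Pig CCNB1 (chromosome 16, 47338072 to 47349846, plus strand) stood at 513 RPM in the oocyte library (489.8 to 538), 510.1 RPM at 2-4 cells, 335 RPM at 8-16 cells (315 to 356), 512 RPM at the morula (487 to 538) and 35.1 RPM at the blastocyst (29.6 to 41.7). The oocyte, 2-4 cell and morula libraries had overlapping intervals, so the pig morula held 99.7% of the oocyte level (93.03 to 107) where the cow morula held 28.1% (26.2 to 30.2). The fall then came in 1 step, 14.6-fold from the morula to the blastocyst (12.2 to 17.6), rank 270 of 12567 genes.

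CCNB2, the second B-type cyclin, also fell over the whole course in both species. In cow (chromosome 10, 51247755 to 51272733, minus strand) it stood at 106 RPM in the oocyte library and 152 RPM at 2-4 cells, fell 5.20-fold to 29.3 RPM at 8-16 cells, and was at 22.8 RPM at the morula and 21.1 RPM at the blastocyst. The intervals of these 3 later cow libraries overlapped from each to the next in level. In pig (chromosome 1, 112907049 to 112942219, minus strand) it stood at 195 RPM in the oocyte library, then at 94.2, 60.6, 32.6 and 28.2 RPM, each lower than the one before, with overlapping intervals only for the last pair. The fall from oocyte to blastocyst was 5.05-fold in cow (4.37 to 5.84) and 6.91-fold in pig (5.62 to 8.57). With scaling to gene reads outside the mitochondrial genome the cow difference of -2.28 was -1.91, short of the threshold.

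In pig the balance of reads between both cyclins moved most at the last step. CCNB1 held 72.5% of the CCNB1 and CCNB2 reads in the pig oocyte library (70.7 to 74.3), 94.0% at the morula (92.7 to 95.1) and 55.5% at the blastocyst (49.1 to 61.7). In cow it held 89.2% in the oocyte library and 86.6% at the 2-4 cell stage. It then held 94.5% at the 8-16 cell stage (93.6 to 95.3) and 80.6% in the blastocyst library (78.6 to 82.5). On the log2 scale, the cow change of CCNB1 minus that of CCNB2 was 1.37 from 2-4 to 8-16 cells. It was -1.38 at the last step, so these steps were close in size. In both species the lowest CCNB1 share was thus that of the blastocyst library.

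**Figure D2:**
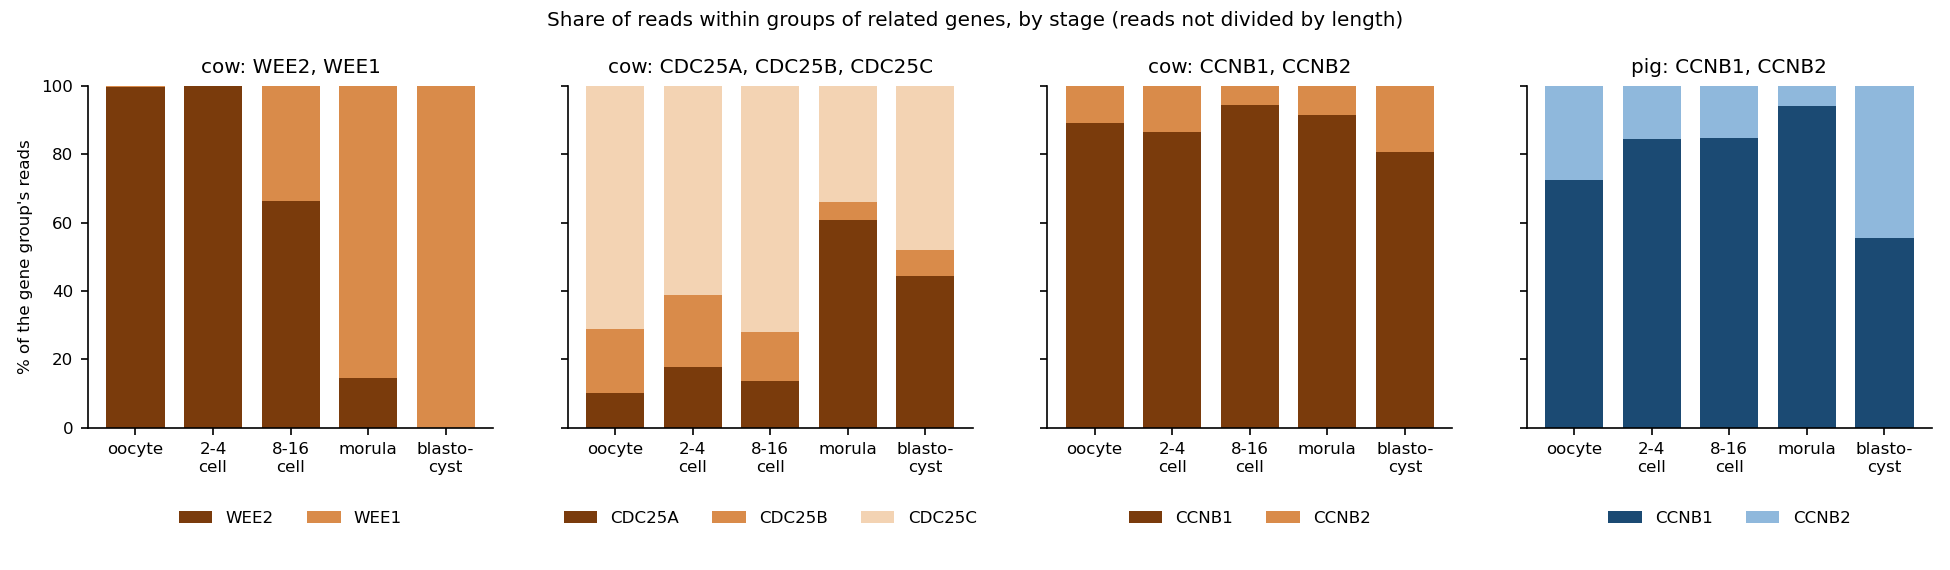
Percentage of the reads of related genes taken by each gene, by stage: cow WEE2 and WEE1, cow CDC25A, CDC25B and CDC25C, and CCNB1 and CCNB2 in cow and pig. Cow WEE2 goes from 99.8% to 0 reads of its pair, cow CDC25A from 10.2% to 60.6% of its group at the morula, and pig CCNB1 from 94.0% at the morula to 55.5% at the blastocyst.

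Among the phosphatases that activate CDK1, CDC25B and CDC25C were lower at the blastocyst than at the oocyte stage in both cow and pig, while cow CDC25A was not. CDC25C acts at entry into mitosis. In cow (chromosome 7, 51313474 to 51344138, minus strand) it stood at 154 RPM in the oocyte library, 177 RPM at 2-4 cells, 75.5 RPM at 8-16 cells, 32.3 RPM at the morula and 36.03 RPM at the blastocyst. The 2 early libraries were high and the 2 last ones low, each pair with overlapping intervals, and the fall of 2.07 just reached the threshold and was short of it (-1.68 to -1.96) under 3 of 7 other settings.

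Pig CDC25C (chromosome 2, 140289156 to 140323696, minus strand) stood at 52.4, 53.2 and 54.01 RPM in the first 3 libraries, at 39.96 RPM at the morula (33.4 to 47.8) and at 13.4 RPM at the blastocyst (10.2 to 17.7). Only the blastocyst library was clear of the others, and the difference from the oocyte was -1.89.

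CDC25B is the phosphatase that starts CDK1 activation when mouse oocytes resume meiosis. Cow CDC25B (chromosome 13, 51853965 to 51863562, minus strand) stood at 40.6, 61.1, 15.1, 5.13 and 5.71 RPM from oocyte to blastocyst, with overlapping intervals for the last pair, and fell 7.10-fold over the course (5.46 to 9.31). Pig CDC25B (chromosome 17, 31910825 to 31921588, minus strand) stood at 78.8 RPM in the oocyte library, 39.9 RPM at 2-4 cells, 72.3 RPM at 8-16 cells, 23.98 RPM at the morula and 20.6 RPM at the blastocyst. The oocyte and 8-16 cell libraries shared the upper level and the 2-4 cell library lay below both. The pig difference from oocyte to blastocyst was -1.88, short of the threshold.

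CDC25A, which acts at entry into S phase as well as mitosis, went up and down in cow (chromosome 22, 52242566 to 52264187, plus strand). It stood at 22.1 RPM in the oocyte library (18.3 to 26.7), 51.4 RPM at 2-4 cells (45.1 to 58.5), 14.2 RPM at 8-16 cells (11.3 to 17.7), 57.7 RPM at the morula (50.6 to 65.8) and 33.1 RPM at the blastocyst (30.3 to 36.3). The 2-4 cell and morula libraries were the high ones and the 8-16 cell library, where CDK1 was highest, the low one. No step reached the threshold; the differences were 1.18, -1.79, 1.95 and -0.78 in order. The level at the morula was 4.07-fold that at 8-16 cells (3.13 to 5.34), and with a pseudocount of 0.1 RPM this difference was 2.02, past the threshold. Of the reads of the 3 CDC25 rows, CDC25A held 10.2% in the oocyte library (8.52 to 12.2), 60.6% at the morula (55.6 to 65.5) and 44.3% at the blastocyst (41.3 to 47.3).

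Both cytostatic factor genes fell from oocyte to blastocyst in both species and ended at or near 0 reads. The cow MOS difference was -3.78, and with a pseudocount of 5 RPM it was -1.88, short of the threshold. Cow MOS (chromosome 14, 24975950 to 24976948, minus strand) stood at 13.6 RPM in the oocyte library (10.7 to 17.3), 22.5 RPM at 2-4 cells (18.5 to 27.4) and 2.76 RPM at 8-16 cells (1.67 to 4.56), and had 0 reads in the morula and blastocyst libraries. It fell 8.16-fold at the 8-16 cell stage (4.72 to 15.1). With 0 reads taken as 3 reads, its blastocyst level was 64.2-fold lower than that of the oocyte. Pig MOS (chromosome 4, 75739402 to 75741076, plus strand) stood at 92.1 RPM in the oocyte library (82.4 to 103), 30.9 RPM at 2-4 cells, 29.1 RPM at 8-16 cells, and 1.33 and 1.34 RPM in the last 2 libraries, which are 4 and 5 reads. The 2-4 cell library held 33.6% of the oocyte level (27.1 to 41.4), the next library overlapped with it, and MOS then fell 21.8-fold at the morula (8.24 to 81.8).

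FBXO43 lies on cow chromosome 14 (66422896 to 66434635, plus strand) and on pig chromosome 4 (36859302 to 36871265, plus strand). In cow it stood at 88.6 RPM in the oocyte library, 105 RPM at 2-4 cells, 20.07 RPM at 8-16 cells (16.6 to 24.2), 9.23 RPM at the morula (6.67 to 12.8) and 0 reads in the blastocyst library. In pig it stood at 182 RPM in the oocyte library, 193 RPM at 2-4 cells, 150.3 RPM at 8-16 cells (137 to 164), 13.3 RPM at the morula (9.78 to 18.1) and 0 reads in the blastocyst library. The high libraries were the first 2 in cow and the first 3 in pig, as for WEE2. With 0 reads taken as 3 reads, the blastocyst level was 419-fold lower than the oocyte level in cow and 226-fold lower in pig. This fall ranked 99 of 12738 genes in cow and 72 of 12512 in pig.

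Step by step, the counts cover 10 genes in cow, or 9 where MOS had too few reads, and 7 in pig. From the oocyte to the 2-4 cell embryo 0 of 10 changed in cow, where 0.374% of 11226 genes compared did (0.196% higher, 0.178% lower), and 0 of 7 compared in pig, where 5.43% of 11362 did (3.26% higher, 2.17% lower). At a threshold of 1, CDC25A was higher in cow and MOS and CCNB2 were lower in pig. From the 2-4 cell to the 8-16 cell embryo 6 of 10 changed in cow, against 27.2% of all genes: WEE2, MOS, CCNB2 and FBXO43 fell, where 14.6% of all genes did, and WEE1 and CDK1 rose, where 12.6% did. The median difference of the 10 genes was -1.87, against -0.44 for all genes. FBXO43 in cow was at -1.99 with median scaling and -1.97 with quantile normalisation, just short of the threshold, and MOS was at -1.83 with a pseudocount of 5 RPM. In pig 0 of 7 changed at this step, where 4.87% of all genes did (4.33% higher, 0.543% lower), and the median was -0.22 against 0.21 for all genes.

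From the 8-16 cell embryo to the morula WEE2 alone of 10 genes fell in cow, where 11.8% of all genes changed (6.67% higher, 5.15% lower), although 8 of 10 were lower and the median was -1.12 against 0.07 for all genes. In pig WEE2, MOS and FBXO43 fell, 3 of 7, where 23.3% of all genes changed, 11.3% lower and 12% higher, and the median was -1.55 against 0.18. From the morula to the blastocyst WEE2, CDK1 and FBXO43 fell in cow, 3 of 9 compared, where 23.4% of all genes changed, 11.5% lower and 11.9% higher. All 3 calls were lost with a pseudocount of 5 RPM. WEE2, CCNB1 and FBXO43 fell in pig, 3 of 7, where 27.6% of all genes changed, 13.8% in each direction, and the FBXO43 difference was -1.81 with a pseudocount of 5 RPM. These shares rest on few genes and are not read as particular to the group.

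Between the first and the last stage, 8 of 10 cow genes passed the threshold, 7 lower and WEE1 higher. Among 12738 genes 40.2% did, 18.4% lower and 21.8% higher. The cow count was 6 with a pseudocount of 5 RPM, without MOS and CDC25C. It was also 6 with scaling to gene reads outside the mitochondrial genome, without CCNB2 and CDC25C. In pig 5 of 7 changed, all lower (WEE2, MOS, CCNB1, CCNB2 and FBXO43), where 45.2% of 12512 genes did, 19.2% lower and 26% higher. The median difference was -2.46 in cow against 0.18 for all genes, and -3.83 in pig against 0.43. Pig WEE1 was not compared. The 7 genes compared in both tables were lower at the blastocyst than at the oocyte stage in both cow and pig, with CDC25B and CDC25C in pig short of the threshold.

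**Figure D3:**
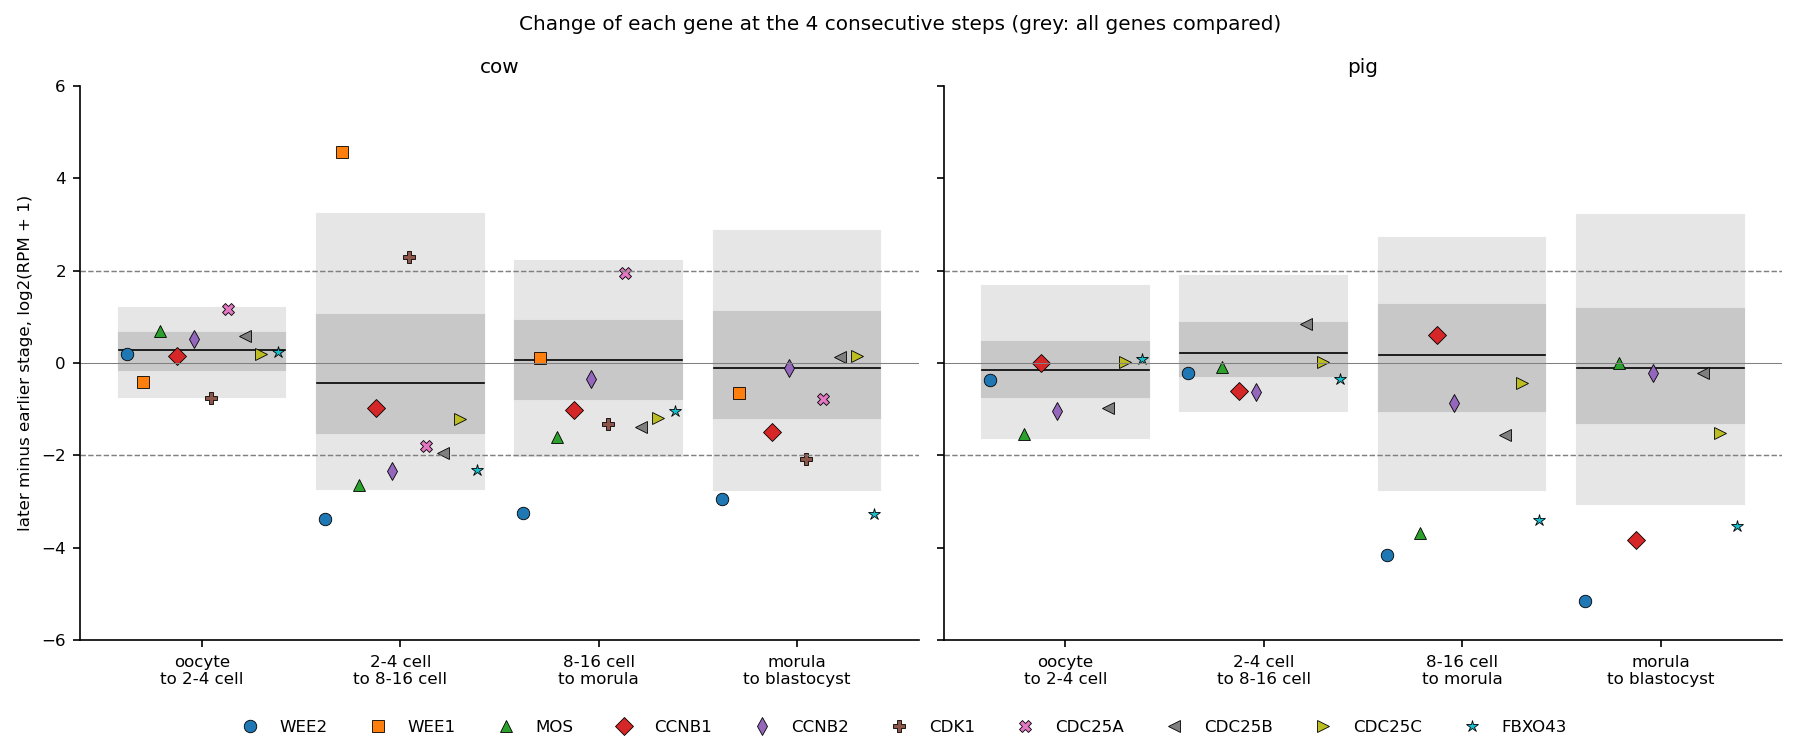
Difference in log2(RPM + 1) of each gene at the 4 consecutive steps in cow and pig (symbols), over the range of all genes compared (light grey, 5th to 95th percentile; dark grey, 25th to 75th; black line, median); dashed lines mark the threshold of 2. In cow 4 genes fall and WEE1 and CDK1 rise from 2-4 to 8-16 cells, and in pig WEE2, MOS and FBXO43 fall from the 8-16 cell stage to the morula and CCNB1 from the morula to the blastocyst.

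The genes are set side by side as percentages of the oocyte level at the cow 8-16 cell stage and the pig morula, stages picked after the values were seen. At the cow 8-16 cell stage WEE2 was at 10.9%, MOS at 20.3% (10.8 to 35.9), FBXO43 at 22.6% (18.2 to 28.0) and CCNB2 at 27.5% (22.9 to 32.9). CDC25B was at 37.2% (28.4 to 48.3), CDC25C at 49.0% (43.3 to 55.3) and CCNB1 at 57.1% (54.4 to 59.9) there. CDC25A was at 64.1% (47.3 to 86.6) and CDK1 at 294% (257 to 336). WEE1 was at 3191% (1442 to 8795), a percentage that rests on 6 reads in the oocyte library. At the pig morula MOS was at 1.45% (0.392 to 3.74), WEE2 at 3.67% (3.20 to 4.21) and FBXO43 at 7.32% (5.18 to 10.1). CCNB2 was at 16.8% (13.4 to 20.8), CDC25B at 30.4% (23.1 to 39.6), CDC25C at 76.3% (59.97 to 96.7) and CCNB1 at 99.7% there. In both libraries the 3 genes of lowest percentage were WEE2, MOS and FBXO43, which depends on the stages picked. At the pig 8-16 cell stage CCNB2 was at 31.2%, MOS at 31.6%, CCNB1 at 65.2%, WEE2 at 66.4% and FBXO43 at 82.6%. CDC25B was at 91.8% and CDC25C at 103% in that library. At the cow 8-16 cell stage, from the lowest percentage up, the interval of each gene from WEE2 to CCNB1 overlapped that of the next. The order of neighbours there is thus within counting error.

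Genes of the most similar course over the 10 libraries were named by a fixed measure, the root mean square difference between profiles of log2(RPM + 1) centred within each species, among 6279 symbols with at least 10 RPM in a library of each species. It describes these libraries and carries no test. Nearest to WEE2 were NLRP9 (0.417), BMP15 (0.806) and H1FOO (0.993), an NLRP-family gene, an oocyte growth factor and the oocyte linker histone. NLRP9 stood at 505, 686, 31.3, 3.85 and 0.0705 RPM in cow, the last being 1 read, and at 739, 400, 439, 29.6 RPM and 0 reads in pig. Nearest to MOS were UCHL1 (0.274), BBS2 (0.310) and ZSWIM3 (0.370), and nearest to FBXO43 were MYH15 (0.397), GJC1 (0.469) and TMEM106A (0.474).

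Nearest to CCNB1 were CENPL (0.261), which codes for a centromere protein, MYNN (0.289) and CEP170 (0.356), a centrosomal protein gene. Pig MYNN shared the level kept to the morula, with 378 RPM in the oocyte library, 417 RPM at the morula and 29.8 RPM at the blastocyst. Nearest to CCNB2 were GLS2 (0.232), GCLC (0.261) and DYNC1I2 (0.267). Nearest to CDC25B were TMEM185B (0.251), VEZF1 (0.302) and STAR (0.304), which is also on the cumulus marker list, and nearest to CDC25C were SERP1 (0.193), HERPUD2 (0.220) and ADGRV1 (0.227). Among the members themselves CDC25B and CDC25C were the closest pair (0.461), followed by CCNB2 and CDC25B (0.479). WEE1, CDK1 and CDC25A lacked the values in pig that the measure needs.

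Other genes of the pathway were followed as 6 lists chosen by role, read beside medians for all genes of 0.18 in cow and 0.43 in pig. Among M-phase kinases, cyclins and their partners, 7 of 16 genes compared fell from oocyte to blastocyst in cow and PKMYT1 rose, with a median of -1.72, and 5 of 13 fell and 0 rose in pig, with a median of -1.13. Over all genes 18.4% fell and 21.8% rose in cow, and 19.2% fell and 26% rose in pig. PLK1, the Polo kinase that activates CDC25C, fell in cow from 163 to 28.1 RPM and in pig from 158 to 17.7 RPM. CKS1B, a small subunit that binds CDK1, fell in cow from 212 to 11.6 RPM and in pig from 397 to 32.7 RPM, where it was already at 32.4 RPM at 2-4 cells. MNAT1, part of the kinase that activates CDK1, fell in cow from 323 to 48.9 RPM and in pig from 217 to 39.4 RPM.

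Greatwall kinase, coded by MASTL, shields CDK1 substrates from dephosphorylation by the phosphatase PP2A-B55. In that list 4 of 10 genes fell in cow (median -0.99) and 3 of 9 in pig (median -0.43), and 0 rose in either. Of all genes, 18.4% fell and 21.8% rose in cow, and 19.2% fell and 26% rose in pig. MASTL stood at 624, 477, 169, 37.7 and 24.8 RPM in cow and at 382, 451, 341, 118 and 17.2 RPM in pig, a fall of 4.60 and 4.40 on the log2 scale. Its high libraries were the first 2 in cow and the first 3 in pig, as for WEE2 and FBXO43. PPP2R1B, a scaffold subunit of PP2A, fell in cow from 164 to 22.2 RPM and in pig from 467 to 42.6 RPM.

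In the MAPK arm that MOS drives, no gene fell in cow and 2 of 7 rose (median 0.75). In pig 3 of 6 rose and 1 fell (median 1.23). Among all genes 21.8% rose and 18.4% fell in cow, and 26% rose and 19.2% fell in pig. MAP2K2, which codes for a kinase that MOS can activate, rose from 2.84 to 21.01 RPM in cow and from 3 reads to 44.8 RPM in pig. RPS6KA1, coding for an RSK kinase downstream of MAPK, rose from 1.62 to 23.8 RPM in cow. In pig it rose from 0 reads in the first 4 libraries to 13.4 RPM. With 0 reads taken as 3 reads, this was 15.1-fold above the oocyte. RPS6KA6, named after its values were seen, fell in pig from 5.03 RPM to 1 read.

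The anaphase-promoting complex (APC/C) ends M phase by marking cyclin B for destruction, and FBXO43 inhibits it. Of this list 4 of 20 genes fell and 2 rose in cow (median -0.25), and 3 of 17 fell and 4 rose in pig (median -0.40). These counts are near the shares of all genes, 18.4% lower and 21.8% higher in cow and 19.2% lower and 26% higher in pig, except the 2 cow rises, which are fewer. FBXO5, the mitotic relative of FBXO43, fell in cow from 892 to 19.5 RPM and in pig from 220 to 53.4 RPM. Pig FBXO5 was at 233 RPM at the morula and fell at the last step, where CCNB1 fell too, and the pig fall of 2.02 over the course just reached the threshold. CDC27, a core subunit that like CDK1 was highest in cow at 8-16 cells (905 RPM), fell in cow from 558 to 56.6 RPM and in pig from 365 to 59.0 RPM, where the morula library was still at 384 RPM. CDC23, another core subunit, rose in cow from 7.30 to 35.96 RPM and in pig from 2.37 to 26.01 RPM.

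Among genes of egg activation and calcium signalling 2 of 7 rose and 1 fell in cow (median 0.01), and 1 of 5 rose and 2 fell in pig (median 0.46), few genes beside all-gene shares of 21.8% higher and 18.4% lower in cow and 26% higher and 19.2% lower in pig. The gene CAMK2G codes for the calmodulin-dependent kinase that triggers loss of EMI2 in mouse eggs. In cow it rose from 8.32 to 65.6 RPM, and in pig it fell from 79.6 to 10.7 RPM. Checkpoint kinases and 14-3-3 proteins hold CDC25 inactive. Of this list 3 of 11 genes rose in cow (median 0.94) and 2 of 9 in pig (median 1.03). These counts are near the 21.8% and 26% of all genes that rose. In neither species did a gene of this list fall, where 18.4% and 19.2% of all genes did. CHEK2, a checkpoint kinase, rose in cow from 1.42 to 16.2 RPM and in pig from 5.92 to 63.5 RPM, and CDKN1A, a CDK inhibitor, from 2.84 to 20.03 RPM and from 1.18 to 44.2 RPM. The third cow gene, SFN, a 14-3-3 protein of epithelia named here after its values were seen, rose from 2.23 to 72.6 RPM.

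**Figure D4:**
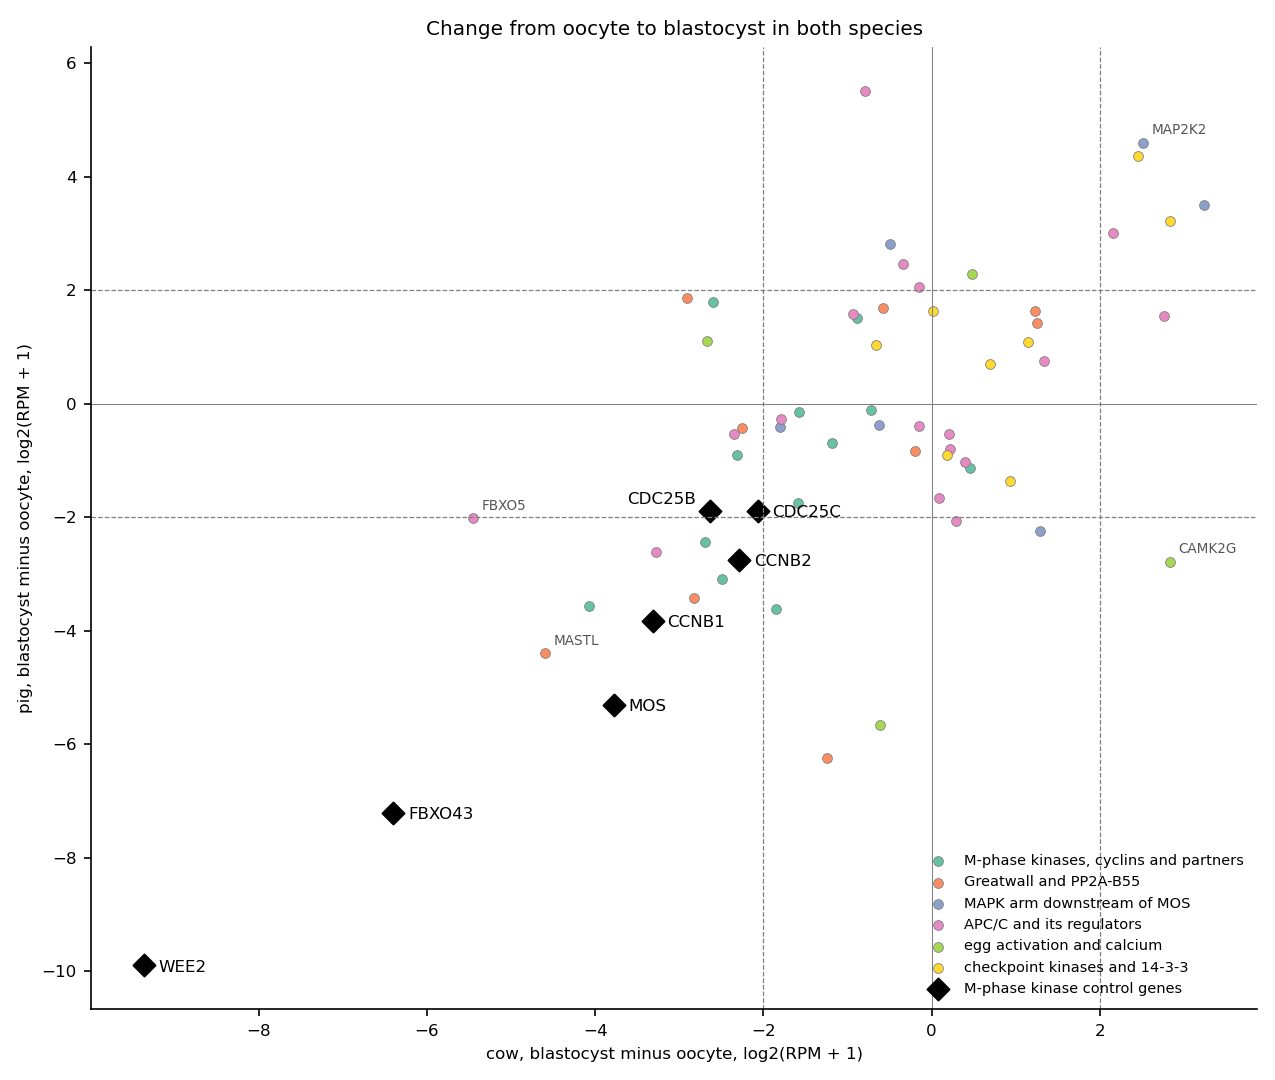
Difference in log2(RPM + 1) between blastocyst and oocyte libraries in cow (horizontal) and pig (vertical) for the 7 M-phase kinase control genes compared in both species (black diamonds) and 56 pathway genes (coloured by list); dashed lines mark the threshold of 2. WEE2, FBXO43, MOS, CCNB1 and CCNB2 lie below the threshold in both species together with 7 pathway genes such as MASTL. A further 5 pathway genes lie above it in both, and CAMK2G lies above it in cow and below it in pig. Of the 56 pathway genes 35 have the same sign in both species. The share of all genes past the threshold in both species was not computed.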

How the data were processed

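RNA sequencing of 10 libraries (5 stages in cow and in pig, 1 library each) was analysed from 1 table per species. Per the labels' protocols, RNA was isolated with a kit for small samples, amplified as cDNA and made into libraries with PCR. The submitters' processing notes name Trim Galore 0.6.4, HISAT2 2.1.0 and the builds UMD3.1 (cow) and Sscrofa11.1 (pig). Counting, annotation, and treatment of strand and duplicate reads are not given in the sources used here.

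The deposited values are log2 reads per 1000000 reads of the library, with 0 reads written by the authors as 0.9 of a read. This was worked out from the values, which are whole multiples of the second lowest value of a column (within 0.01 of a read, and in proportion for counts above 1000); read numbers and library totals follow from it. Values were raised to the power of 2 (RPM), and changes were computed as log2(RPM + 1) differences as deposited. Levels, shares and folds use the reads, with 95% Wilson or exact (Clopper-Pearson) intervals that cover counting error only, since amplified reads are not independent molecules. A fold against 0 reads was taken against 3 reads and leaves out the counting error of the other library. Fold changes on the log2(RPM + 1) scale understate changes of low genes. Analyses used Python 3.11.15, numpy 2.4.6, pandas 2.3.3 and scipy 1.17.1 and were tested on simulated data.

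The members and lists were chosen with earlier results of these data known. All 10 members are named. From each list the genes changed from oocyte to blastocyst in both species are named, up to 6, and for each member the 3 symbols nearest in profile. Coordinates are those of the deposited tables. No sequences are shown. The values of 1 gene of the lists are not reported here.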

Additional observations from a re-analysis of the deposited data

Results flagged for a closer look

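CAMK2G, a gene of the egg activation list, went in opposite directions in the species. On the log2(RPM + 1) scale the blastocyst minus oocyte difference was 2.84 for the cow libraries and -2.78 for the pig libraries. Each value compares 1 library with 1 library, and the difference between the species was not tested.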

How the results depend on the processing

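Counts of changed genes of the group were recomputed under 10 other settings for 10 comparisons, 1 setting (0 reads taken as 0) having been chosen after the data were seen, and 95 of 100 counts stayed within 1.5 times the count reported. With a threshold of 1, the count was 1 in place of 0 for the cow step from oocyte to 2-4 cell stage, 2 in place of 0 for the same step in pig, and 8 in place of 1 for the cow step from 8-16 cell stage to morula. A pseudocount of 0.1 RPM gave 3 in place of 1 at that last step. A pseudocount of 5 RPM gave 0 in place of 3 for the cow step from morula to blastocyst, where WEE2 and FBXO43 start from low levels. The cause of the other moves was not tested. No difference from oocyte to blastocyst changed sign under the settings run. Cow MOS lay between -1.88 and -6.39, cow CCNB2 between -1.91 and -2.34, cow CDC25C between -1.68 and -2.12, cow CDK1 between -1.50 and -2.02, pig CDC25B between -1.71 and -2.11 and pig CDC25C between -1.64 and -2.19, each on both sides of the threshold. Median scaling shifted the median of all genes by -0.31 to 0.39 in cow and by -0.32 to 0.37 in pig between stages, and scaling to gene reads outside the mitochondrial genome by 0.42 in cow from oocyte to blastocyst. The share of higher genes among all changed genes moved by over 10 percentage points in 5 steps: with median scaling from 52.4% to 19.1% and from 46.5% to 62.7% at the first 2 cow steps, and from 60.0% to 81.4%, from 88.9% to 72.4% and from 51.7% to 40.7% at the first 3 pig steps; quantile normalisation gave 24.4% at the first cow step and 62.7% at the second pig step. No paired analysis was possible because each group has 1 library.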
